A study of Mus musculus with 8 samples.

Results

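The 45 genes described here build ribosomes: they encode RNA polymerase I and its factors, the proteins of small nucleolar ribonucleoproteins (snoRNPs), and assembly factors of both ribosomal subunits. They were taken by name from a list of nucleolar genes, and all 45 are among the 17488 genes that the deposited table lists. They were sorted by step into 10 genes of polymerase I transcription, 8 snoRNP genes, 12 small-subunit genes and 15 large-subunit genes. A gene such as Npm1 serves more than one step and was placed in one.

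RNA was sequenced from whole intra-abdominal neuroblastomas of 8 mice homozygous for TH-MYCN, with 1 library per animal. This transgene drives human MYCN from a tyrosine hydroxylase promoter, so every tumour of both groups carried it, and each library held tumour cells together with stroma. Treatment began at about 6 weeks of age with tumours of 200 to 300 mm3. Panobinostat mice (n = 4) received 2 doses of 5 mg/kg of this histone deacetylase inhibitor 24 h apart, vehicle mice (n = 4) received vehicle on the same schedule, and tumours were taken 4 h after the second dose. The comparison asks how transcripts of ribosome assembly differed in MYCN-driven tumours after about a day of deacetylase inhibition.

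Ribosome production starts in the nucleolus, where RNA polymerase I transcribes a long precursor of the ribosomal RNAs. Box C/D snoRNPs methylate that precursor and box H/ACA snoRNPs convert chosen uridines to pseudouridine, each guided by a small RNA. Assembly factors then fold, cut and package the precursor into a small and a large subunit, which leave the nucleus separately. Many of these genes are known as targets of MYC and MYCN, and large nucleoli are a familiar sight in MYCN-driven neuroblastoma.

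Depth, summed over the listed genes, was 18664066 to 22235545 reads per panobinostat library and 22055658 to 23830026 per vehicle library. The members took 86970 to 102634 of these reads in a panobinostat library and 170432 to 190547 in a vehicle library, and the smallest count of any member in any library was 378 reads. Transcripts of sympathetic neuroblasts were present in every library, with summed levels of 8 markers at 799 to 871 CPM (reads scaled to a common library size) with panobinostat and 1746 to 2709 CPM with vehicle, and 6 of the 8 fell. Markers of several other cell types were higher, though not in every list. Macrophage markers (7 of 8 higher) summed to 2724 to 4882 CPM with panobinostat against 559 to 1100 CPM with vehicle, and fibroblast and mural markers (8 of 8 higher) to 8047 to 14520 CPM against 1398 to 4656 CPM. Adipocyte markers (5 of 5 higher) summed to 1016 to 1537 CPM against 22.7 to 625 CPM, and Schwann cell markers (5 of 7 higher) to 194 to 495 CPM against 196 to 244 CPM. Of the 6 T cell markers 1 was abundant enough to test and was higher (28.8 to 51.4 CPM in sum against 5.78 to 30.2 CPM), and 1 of 5 endothelial markers was higher (211 to 350 CPM against 70.8 to 382 CPM). Markers of neighbouring organs were spread unevenly over the panobinostat libraries, and whether their reads came from organ tissue was not tested. Adrenal cortex markers (5 of 5 tested higher) summed to 38.9 to 2747 CPM with panobinostat and 8.90 to 11.4 CPM with vehicle, where Cyp11b2 and Nr5a1 were at 0 reads in at least 1 vehicle library. Liver markers (2 of 2 tested higher) summed to 17.1 to 8620 CPM against 3.51 to 7.30 CPM, pancreas markers (1 of 1 tested higher) to 15.2 to 4005 CPM against 7.57 to 14.4 CPM, and the 2 kidney markers listed (1 tested, not called) to 0.0448 to 648 CPM against 0.265 to 2.22 CPM. Prss2 of the pancreas list and both kidney markers were at 0 reads in at least 1 panobinostat library, and the adipocyte marker Lep and the kidney marker Slc34a1 in at least 1 vehicle library. The highest kidney sum was in panobinostat library 3 and the highest cortex, liver and pancreas sums in panobinostat library 4, and the main counts are also given without both. Of the marker lists, 8 macrophage, 7 fibroblast and mural, 3 adipocyte and 3 Schwann cell markers and the 1 T cell marker tested were then higher. No endothelial marker was called, and 6 neuroblast markers were lower. Reads of organ markers remained in the libraries kept. Cortex markers summed to 719 CPM in panobinostat library 1, and pancreas markers to 661 CPM in panobinostat library 2. The 5 cortex, 2 liver and 1 pancreas markers tested were still called higher.

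Ribosome assembly transcripts were mostly lower after panobinostat. Summed over the 45 members they made up 4599, 4508, 4820 and 5227 CPM in panobinostat tumours, against 7842, 9340, 7559 and 8858 CPM in vehicle tumours, and the groups did not overlap. Of the 45 members, 33 fell, 4 rose and 8 made no call at a Benjamini-Hochberg adjusted p under 0.05 in limma. Among all 16157 genes tested 32.4% fell and 31.2% rose under the same rule, and the median log2 change (panobinostat minus vehicle) was -0.64 over the members and -0.02 over all tested genes. A test against a 1.5-fold change was passed by 12 members, all lower, where 13.5% of all tested genes passed it downward. In 31 members every panobinostat value lay below every vehicle value, a pattern met in 31.2% of tested genes, and in 4 members every panobinostat value lay above, met in 28.5% of tested genes. Other scalings were tried: quantile normalization gave 31 lower and 5 higher (36.9% and 28.9% of all tested genes), median centring 35 and 3 (37.5% and 27.9%), and read totals 32 and 4 (28.5% and 35.1%). In tissue of mixed cells, fewer cells of a type and less RNA per cell cannot be told apart, and the part of the marker changes in these results was not tested. With panobinostat libraries 3 and 4 left out, limma called 31 members lower, where 25% of all tested genes were, and 0 higher, where 23.4% were; 2 were higher at an unadjusted p under 0.05. The median over the members was then -0.70.

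**Figure D1:**
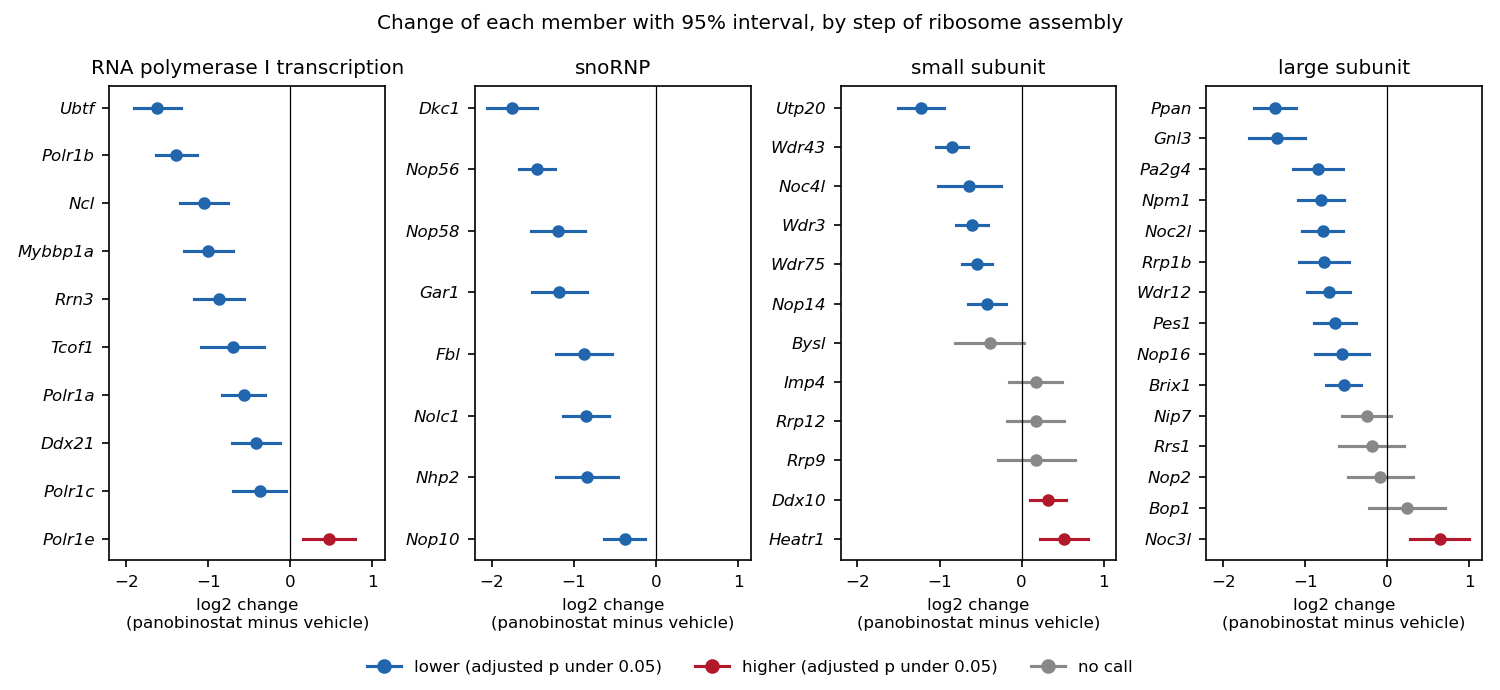
The log2 change (horizontal axis, panobinostat minus vehicle) of each of the 45 members is plotted with its 95% interval from limma, in 1 panel per step. All 8 snoRNP genes lie left of 0, while the small-subunit panel runs from Utp20 at -1.22 to Heatr1 at 0.52.

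The steps differed in how many of their genes moved. All 8 snoRNP genes fell, with a median of -1.03, and 9 of 10 polymerase I genes were called lower and 1 higher (median -0.79). Of 15 large-subunit genes 10 fell, 1 rose and 4 made no call (median -0.64), and of 12 small-subunit genes 6 fell, 2 rose and 4 made no call (median -0.41). Under the same rule 32.4% of all tested genes fell and 31.2% rose. The snoRNP genes averaged 6.17, 6.00, 6.12 and 6.23 log2 CPM in panobinostat libraries, against 7.08, 7.37, 6.99 and 7.35 log2 CPM in vehicle libraries. For the small-subunit genes the averages were 5.78, 5.86, 5.96 and 6.05 log2 CPM with panobinostat and 6.06, 6.26, 6.01 and 6.40 log2 CPM with vehicle, so that panobinostat library 4 lay above vehicle library 3. The members were chosen with results of these data known, and a difference between steps was not tested.

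Of the 10 polymerase I members 9 fell and 1 rose, where 32.4% of all tested genes fell and 31.2% rose. Ubtf on chromosome 11 (102304560 to 102319742, minus strand, mm10) encodes the upstream binding factor that keeps ribosomal DNA open for transcription. It had 83.5, 76.9, 79.3 and 79.7 CPM in panobinostat tumours, against 258, 264, 189 and 283 CPM in vehicle tumours. The panobinostat values were close together and all below the lowest vehicle value, and the log2 change was -1.62 (SE 0.13, limma adjusted p = 1.12e-05). Polr1b, the second-largest and catalytic subunit, had 33.09, 32.05, 32.82 and 36.10 CPM with panobinostat and 81.0, 98.2, 76.3 and 97.5 CPM with vehicle, again with no overlap (-1.39, SE 0.11, limma adjusted p = 1.22e-05). Ncl encodes nucleolin, one of the most abundant nucleolar proteins. Its transcript stood at 669, 655, 709 and 781 CPM with panobinostat and at 1431, 1776, 1417 and 1241 CPM with vehicle (-1.05, SE 0.13, limma adjusted p = 1.14e-04). Mybbp1a, a nucleolar Myb-binding protein, fell in parallel, to 208, 215, 229 and 244 CPM with panobinostat against 391.9, 471, 382 and 566 CPM with vehicle (-0.999, SE 0.13, limma adjusted p = 1.83e-04).

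Rrn3, which links polymerase I to its promoter and is a known control point of growth signalling, fell by 0.87 on the log2 scale (SE 0.14), and Tcof1, the treacle protein gene affected in Treacher Collins syndrome, by 0.70 (SE 0.17). The largest subunit gene Polr1a fell less, by 0.57 (SE 0.12), to 62.3, 53.7, 56.3 and 59.9 CPM against 77.2, 87.2, 77.7 and 104 CPM with vehicle. The calls of Ddx21 and Polr1c were the least secure among the decreases of this step. Ddx21, a nucleolar RNA helicase, changed by -0.42 (SE 0.13, limma adjusted p = 0.0177), with overlapping groups. Its call was lost without panobinostat library 1 (-0.38, limma adjusted p = 0.0504) and with quantile normalization (-0.09). Polr1c, a subunit shared by polymerases I and III, changed by -0.37 (SE 0.14, limma adjusted p = 0.0461), with overlapping groups. Its call was lost when any of the 4 panobinostat libraries, vehicle library 2 or vehicle library 4 was left out (limma adjusted p from 0.0608 to 0.127), and when panobinostat libraries 3 and 4 were both left out (-0.47, limma adjusted p = 0.0858). With all libraries, Polr1c was not called without a variance trend, with quantile normalization, read totals or voom weights (limma adjusted p from 0.0516 to 0.101).

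Polr1e encodes a subunit that, paired with the product of Cd3eap, helps polymerase I start and move along the gene. Its transcript was the one that rose, with 25.11, 29.15, 31.19 and 30.70 CPM in panobinostat tumours, against 18.88, 21.98, 18.11 and 25.06 CPM in vehicle tumours. The lowest panobinostat value and the highest vehicle value nearly touched, and the rise was 0.47 (SE 0.14, limma adjusted p = 0.0147). Cd3eap, looked up after its value was seen, rose too, with 29.3, 29.5, 33.1 and 33.1 CPM with panobinostat and 17.6, 19.5, 18.2 and 31.2 CPM with vehicle (0.57, SE 0.18, limma adjusted p = 0.0227), although vehicle library 4 lay within the panobinostat range. The call of Cd3eap was also lost when panobinostat library 3 or 4 or vehicle library 1, 2 or 3 was left out (limma adjusted p from 0.0539 to 0.0596). Neither gene was called once panobinostat libraries 3 and 4 were both left out (limma, 0.38 with adjusted p = 0.157 for Polr1e, 0.48 with adjusted p = 0.161 for Cd3eap).

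**Figure D2:**
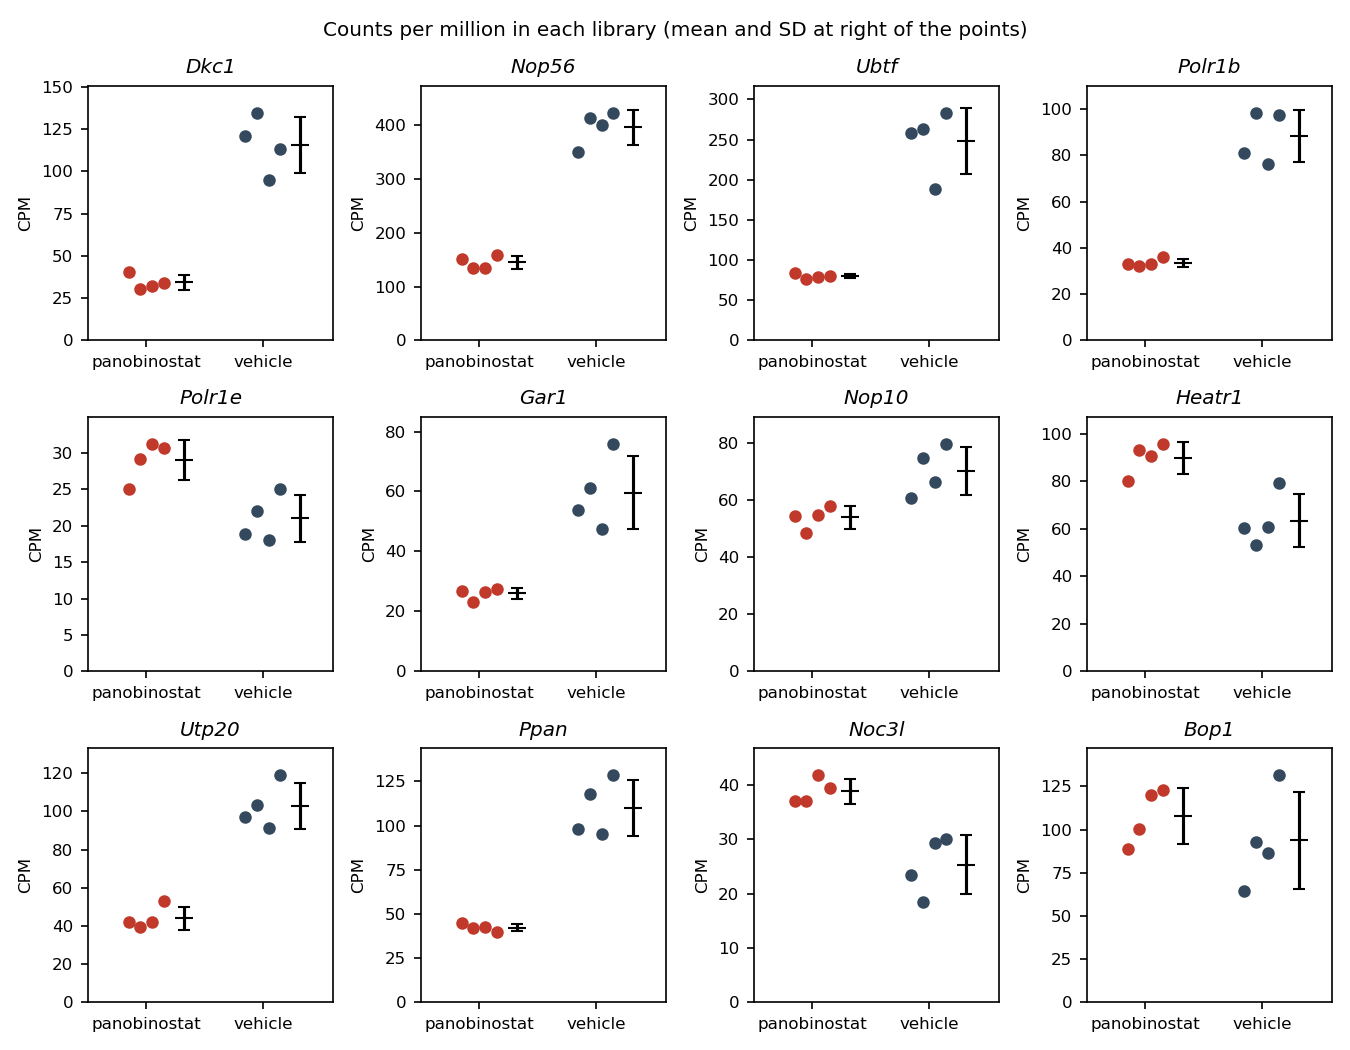
CPM (vertical axes, from 0) of 12 members in each of the 4 panobinostat and 4 vehicle libraries are shown as points, with the group mean and SD beside them. Dkc1, Nop56, Ubtf, Polr1b, Gar1, Utp20 and Ppan are separated widely, Nop10 narrowly, Polr1e, Heatr1 and Noc3l lie higher with panobinostat, and Bop1 overlaps.

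In all 8 snoRNP genes every panobinostat value lay below every vehicle value, a pattern met in 31.2% of tested genes. Dkc1, on chromosome X (75095854 to 75109777, plus strand), encodes dyskerin, the pseudouridine synthase of box H/ACA particles, and showed the largest decrease of the 45 members. It had 40.6, 30.3, 32.2 and 34.2 CPM with panobinostat, against 121, 134, 94.9 and 113 CPM with vehicle, so that the highest panobinostat value was less than any vehicle value (-1.75, SE 0.13, limma adjusted p = 1.06e-05). Gar1, a partner in the particle, fell as well. It had 27.0, 23.3, 26.4 and 27.4 CPM with panobinostat and 53.9, 61.2, 47.5 and 75.8 CPM with vehicle (-1.18, SE 0.15, limma adjusted p = 1.28e-04). Of the other partners, Nhp2 fell by 0.84 (SE 0.17), and Nop10 by 0.38 (SE 0.11, limma adjusted p = 0.0143), to 54.4, 48.6, 54.8 and 58.2 CPM against 60.8, 74.8, 66.3 and 79.7 CPM with vehicle. With panobinostat libraries 3 and 4 left out Nop10 was not called (-0.45, limma adjusted p = 0.0516).

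Box C/D particles are built on the paralogous scaffold proteins of Nop56 and Nop58 and on fibrillarin, the methyltransferase encoded by Fbl. Nop56 on chromosome 2 (130274430 to 130279313, plus strand) had 151, 135, 136 and 159 CPM with panobinostat, against 350, 414, 401 and 423 CPM with vehicle, with close values in both groups and the smallest adjusted p of the 45 members (-1.45, SE 0.10, limma adjusted p = 6.48e-06). Nop58 had 123, 103, 107 and 117 CPM with panobinostat and 276, 329, 231 and 208 CPM with vehicle (-1.19, SE 0.14, limma adjusted p = 1.00e-04). Fbl fell by 0.88 (SE 0.15), and Nolc1, a chaperone that carries both kinds of particle into the nucleolus, by 0.85 (SE 0.12).

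Small-subunit genes moved both ways. These proteins form the processome, the large particle that grows on the precursor RNA while it is being made. Utp20, a long helical-repeat protein named for its yeast counterpart, had 41.9, 39.2, 42.1 and 52.9 CPM with panobinostat, against 97.3, 104, 91.4 and 119 CPM with vehicle (-1.22, SE 0.12, limma adjusted p = 3.81e-05). Wdr43, with the closest panobinostat values of the step, stood at 90.2, 92.3, 89.9 and 93.6 CPM with panobinostat and 165, 186, 154 and 157 CPM with vehicle (-0.85, SE 0.09, limma adjusted p = 3.58e-05). The processome proteins of Wdr3 and Wdr75 share its repeat fold, and their genes fell too. Wdr3 had 64.0, 76.2, 72.2 and 76.5 CPM with panobinostat and 108, 111, 104 and 113 CPM with vehicle (-0.60, SE 0.09, limma adjusted p = 3.05e-04), and Wdr75 59.8, 56.4, 58.97 and 60.1 CPM with panobinostat and 82.8, 88.6, 80.6 and 90.8 CPM with vehicle (-0.54, SE 0.08, limma adjusted p = 3.49e-04). Nop14 fell by 0.42 (SE 0.10) and its partner Noc4l by 0.64 (SE 0.17).

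Heatr1 and Ddx10 rose. Heatr1, the counterpart of yeast Utp10, acts where precursor transcription meets processing. It had 80.3, 93.2, 90.8 and 95.6 CPM in panobinostat tumours, against 60.4, 53.4, 60.9 and 79.4 CPM in vehicle tumours, with vehicle library 4 just below the panobinostat range (0.52, SE 0.13, limma adjusted p = 0.00644). Its exons share 155 bases with those of Lgals8 on the opposite strand, which rose by 1.19 (SE 0.14), and reads from the shared bases cannot be assigned without strand. Ddx10, a helicase whose yeast counterpart frees a small RNA from the precursor, had 50.7, 51.2, 53.7 and 56.5 CPM with panobinostat and 42.2, 46.8, 38.1 and 42.5 CPM with vehicle (0.33, SE 0.10, limma adjusted p = 0.0148). Neither rise was called when panobinostat libraries 3 and 4 were left out (limma, 0.46 with adjusted p = 0.0735 for Heatr1, 0.27 with adjusted p = 0.165 for Ddx10), and Ddx10 was not called with libraries centred on their medians (0.21, limma adjusted p = 0.0647).

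Among the small-subunit genes, 4 made no call, each with overlapping groups. Rrp9, a protein of the U3 particle, had 52.7, 55.2, 67.7 and 71.3 CPM with panobinostat and 40.6, 54.9, 46.9 and 81.6 CPM with vehicle, and its difference was 0.18 (SE 0.21, 95% interval -0.29 to 0.65, limma adjusted p = 0.473). Vehicle library 4 alone exceeded all panobinostat values. Rrp12, a factor of subunit export, ranged over 56.1 to 78.7 CPM with panobinostat and 50.3 to 74.8 CPM with vehicle (0.17, SE 0.15, interval -0.17 to 0.52, limma adjusted p = 0.349). Imp4, another U3 protein, ranged over 58.8 to 71.2 CPM with panobinostat and 47.3 to 69.7 CPM with vehicle (0.17, SE 0.14, interval -0.15 to 0.49, limma adjusted p = 0.315). Bysl, which encodes bystin, a late small-subunit factor, ranged over 32.1 to 40.8 CPM with panobinostat and 36.7 to 66.7 CPM with vehicle (-0.39, SE 0.19, interval -0.82 to 0.03, limma adjusted p = 0.0971). Bysl was called lower with median centring (-0.51, limma adjusted p = 0.0313), trimmed mean centring, library weights and without vehicle library 3 (-0.52), and its exons share 361 bases with Ccnd3 on the opposite strand, which rose by 2.10 (SE 0.14).

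Large-subunit genes fell in most cases. Ppan, the counterpart of a yeast factor for the large-subunit precursor, had 44.65, 41.84, 42.76 and 39.97 CPM with panobinostat, against 98.1, 118, 95.4 and 128 CPM with vehicle (-1.37, SE 0.11, limma adjusted p = 1.47e-05). Gnl3 on chromosome 14 (31012433 to 31019152, minus strand) encodes nucleostemin, a GTPase known from stem and tumour cells, and had 80.4, 64.4, 64.4 and 70.8 CPM with panobinostat and 187, 229, 163 and 140 CPM with vehicle (-1.34, SE 0.15, limma adjusted p = 6.94e-05). Both were separated widely. Npm1, the abundant histone chaperone and ribosome carrier nucleophosmin, had 762, 683, 747 and 857 CPM with panobinostat, against 1308, 1591, 1261 and 1193 CPM with vehicle (-0.81, SE 0.12, limma adjusted p = 4.27e-04). Noc2l, an early large-subunit factor, had 92.8, 95.5, 92.7 and 98.8 CPM with panobinostat and 144, 165, 153 and 199.9 CPM with vehicle (-0.79, SE 0.11, limma adjusted p = 2.20e-04), and shares 598 exon bases with the weakly expressed Samd11 on the opposite strand, which was also lower (-1.01, SE 0.30). The growth-regulated binding protein gene Pa2g4 fell by 0.84 (SE 0.14), Rrp1b by 0.77 (SE 0.13), Nop16 by 0.55 (SE 0.15) and Brix1 by 0.53 (SE 0.10).

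Noc3l was the large-subunit gene that rose. Its product works with that of Noc2l in early large-subunit particles. It had 36.94, 37.08, 41.76 and 39.36 CPM in panobinostat tumours, against 23.34, 18.55, 29.38 and 30.02 CPM in vehicle tumours, without overlap (0.64, SE 0.16, limma adjusted p = 0.00670), but was not called when panobinostat libraries 3 and 4 were left out (0.57, limma adjusted p = 0.0739). No call was made for Bop1, Nip7, Rrs1 and Nop2, whose groups overlapped. Bop1 had 89.1, 100.2, 119.8 and 122.8 CPM with panobinostat and 64.4, 92.8, 86.3 and 131.5 CPM with vehicle (0.24, SE 0.20, 95% interval -0.22 to 0.70, limma adjusted p = 0.330), and was called higher with quantile normalization (0.44, limma adjusted p = 0.0493). Nip7, a late factor known from yeast, ranged over 37.2 to 42.5 CPM with panobinostat and 38.6 to 56.9 CPM with vehicle (-0.25, SE 0.13, interval -0.55 to 0.05, limma adjusted p = 0.125). It was called lower with library weights, median or trimmed mean centring, and without vehicle library 3 (-0.35, limma adjusted p = 0.0246). Rrs1, which helps load a small ribosomal RNA, ranged over 31.0 to 33.8 CPM with panobinostat and 27.2 to 51.5 CPM with vehicle (-0.19, SE 0.18, interval -0.59 to 0.21, limma adjusted p = 0.370). Nop2, an RNA methyltransferase gene, had 71.8, 78.1, 82.5 and 88.7 CPM with panobinostat and 70.6, 75.8, 77.5 and 125.4 CPM with vehicle (-0.09, SE 0.18, interval -0.48 to 0.31, limma adjusted p = 0.690), where vehicle library 4 stood apart.

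Transcript ratios between partner genes were also compared. For 21 pairs the log2 ratio of their CPM was taken within each library, where the library's scaling cancels; most are subunits of one particle, and 2 pairs set Noc4l of the small subunit against its large-subunit relatives Noc2l and Noc3l. In 16 pairs the ratio differed, each at a two-sided exact permutation p of 0.0286, the smallest that 70 assignments of 4 against 4 allow, and 0.0375 adjusted over the 21. Groups were separated this way in 57.4% of all pairs of tested genes and in 630 of the 990 pairs that the 45 members form, so separation of a pair is common in this table. With quantile normalization Polr1a to Polr1c no longer passed (-0.16, adjusted exact permutation p = 0.1) and Pes1 to Wdr12 did (0.22, adjusted exact permutation p = 0.0375). The widest difference was that of Polr1b to Polr1e, whose log2 ratio was 0.21 ± 0.14 with panobinostat and 2.07 ± 0.08 with vehicle (mean ± SD, n = 4 each). Polr1a gained on Polr1b by 0.82, with ratios of 0.79 ± 0.08 with panobinostat and -0.03 ± 0.12 with vehicle (SD, n = 4). Dkc1 to Nop10 stood at -0.66 ± 0.16 with panobinostat and 0.71 ± 0.24 with vehicle (SD, n = 4), and Noc2l to Noc3l at 1.29 ± 0.10 with panobinostat and 2.72 ± 0.32 with vehicle (SD, n = 4). In the PeBoW complex, a trio that matures the large-subunit RNA, Pes1 to Bop1 stood at -0.23 ± 0.17 with panobinostat and 0.65 ± 0.29 with vehicle (SD, n = 4). Bop1 shares 50 exon bases with Mroh1 on the opposite strand, which rose by 1.52 (SE 0.12).

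The other 5 pairs did not pass. Pes1 to Wdr12 was 1.07 ± 0.08 with panobinostat and 0.99 ± 0.12 with vehicle (SD, n = 4, adjusted exact permutation p = 0.314), and these genes fell by 0.64 (SE 0.11) and 0.72 (SE 0.12). Nop56 to Nop58 was 0.37 ± 0.07 with panobinostat and 0.62 ± 0.34 with vehicle (SD, n = 4, adjusted exact permutation p = 0.314). Dkc1 to Gar1 was 0.39 ± 0.14 with panobinostat and 0.97 ± 0.27 with vehicle (SD, n = 4, adjusted exact permutation p = 0.0706), where 1 panobinostat library reached above the lowest vehicle library. The pairs Nop58 to Fbl (difference -0.32) and Noc2l to Noc4l (difference -0.15) were the remaining ones. The absolute size of such a ratio depends on transcript lengths, so only its difference between groups is read here.

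**Figure D3:**
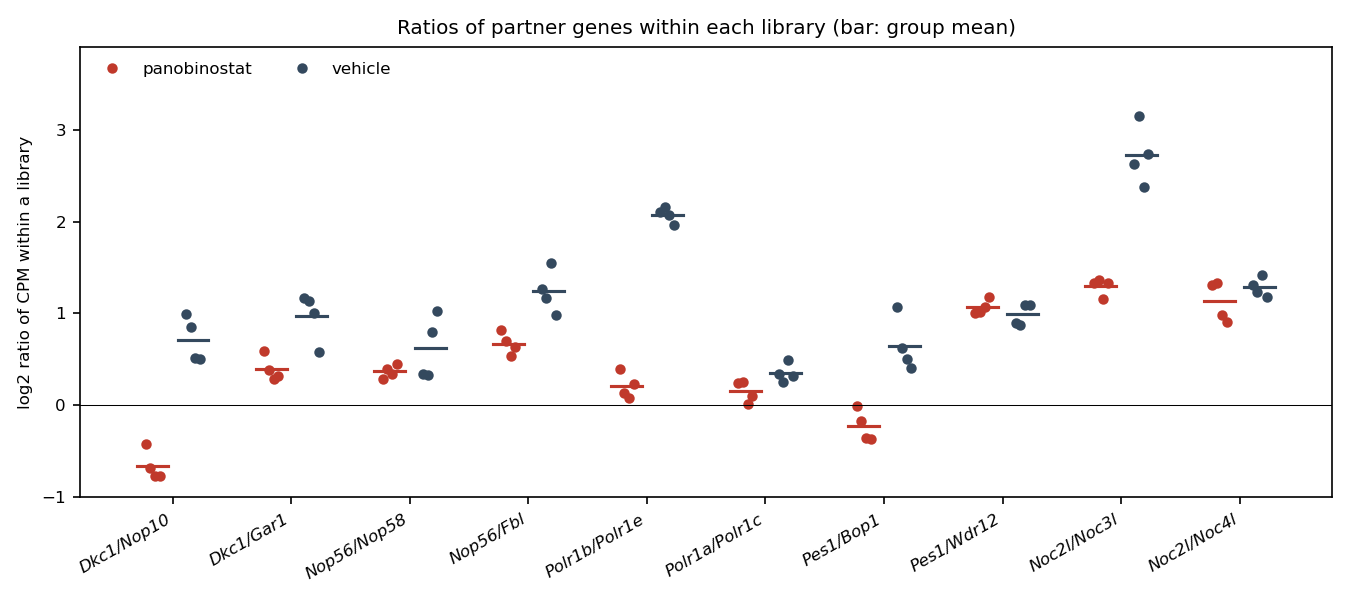
Log2 ratios of CPM (vertical axis) are shown for 10 pairs of partner genes in each panobinostat and vehicle library, with the group mean as a bar. Polr1b to Polr1e and Dkc1 to Nop10 are far apart between groups, and Pes1 to Wdr12 and Noc2l to Noc4l overlap.

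On a per-length scale (CPM per kb of protein-coding transcript), Npm1 was the highest member in both groups, at 375 with panobinostat and 659 with vehicle, and Pa2g4, Nop56 and Ncl were among the next. The order further down changed. Dkc1 ranked 36 of 45 with panobinostat and 19 with vehicle (12.2 and 41.3 CPM per kb), and Ubtf ranked 34 with panobinostat and 20 with vehicle (13.2 and 41.1 CPM per kb). Bop1 ranked 10 with panobinostat and 21 with vehicle, and Rrp9 12 with panobinostat and 23 with vehicle. Lengths join all basic coding transcripts of a gene, so long alternative ends lower the value of genes such as Nop58 and Wdr12.

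**Figure D4:**
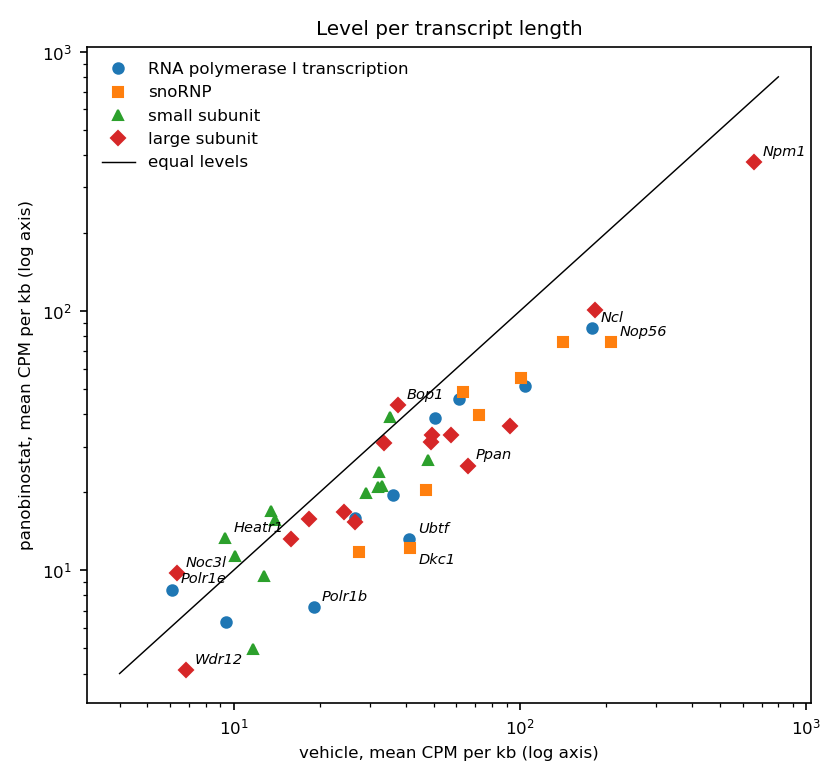
Mean CPM per kb of the 45 members with panobinostat (vertical, log axis) is plotted against vehicle (horizontal, log axis), with 1 marker shape per step and a line of equal levels. Most points lie below the line, Npm1 is highest, and Bop1, Heatr1, Noc3l and Polr1e are among those above it.

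Some members hold snoRNA genes. Introns of some ribosome assembly genes carry snoRNA genes, so that host and guide are made from one transcript. In GENCODE M21, 7 of the 45 members (15.6%) hold a snoRNA gene within their span on the same strand, against 1.64% of tested genes: Ncl, Nop56, Nop58, Dkc1, Wdr43, Ppan and Gnl3. All 7 fell, with a median of -1.34, and of the 38 without one 26 fell, with a median of -0.56. Of all 265 tested genes that hold a snoRNA, 141 fell, with a median of -0.41, where 32.4% of all tested genes fell. Of the snoRNAs in these genes 4 are listed on their own, 2 of them in Gnl3. Snord69 had 42, 21, 35 and 24 reads with panobinostat and 154, 206, 129 and 46 with vehicle (-1.90, SE 0.44, limma adjusted p = 0.00448), and Snord19 had 5, 22, 22 and 10 reads against 52, 51, 45 and 20 (-1.53, SE 0.54, limma adjusted p = 0.0324). Snord53 in Wdr43 had 17, 22, 19 and 11 reads with panobinostat and 38, 35, 41 and 10 with vehicle and made no call (-0.61, SE 0.46, limma adjusted p = 0.274). Gm26293 in Nop58, with 7 to 10 reads per panobinostat library and 10 to 33 per vehicle library, was too low to test. Reads over these snoRNAs can also come from the unspliced host.

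Promoters were searched because the E-box CACGTG is the preferred site of MYC and MYCN. RefSeq windows from 250 bases before to 50 after the start site (GRCm38.p6, the assembly of mm10) were given for 39 members, and 7 of them (17.9%) held CACGTG, which reads the same on both strands, against 11.4% of 11536 tested genes with a window. These were Imp4, Mybbp1a, Nop2, Pes1, Rrn3, Utp20 and Wdr43. Of these 7 genes 5 fell, with a median of -0.85, and of the 32 with a window and no CACGTG 25 fell, with a median of -0.62. The share that fell among all tested genes was 32.4%. None of the 7 snoRNP genes with a window held the motif, but with 11.4% of tested genes holding it, 7 are too few to read this. The 250 bases before the start are shown, in transcript direction, for the members with CACGTG in that stretch, and for Dkc1, the gene with the largest decrease. Capitals mark CACGTG.

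Rrn3 (chr16:13780449-13780698, plus strand), which fell by 0.87: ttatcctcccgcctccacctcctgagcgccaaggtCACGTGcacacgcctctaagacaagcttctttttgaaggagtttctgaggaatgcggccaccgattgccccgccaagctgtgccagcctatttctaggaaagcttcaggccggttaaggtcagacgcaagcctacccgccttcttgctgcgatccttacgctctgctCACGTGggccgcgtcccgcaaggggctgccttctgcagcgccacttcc
Nop2 (chr6:125131633-125131882, plus strand), which made no call: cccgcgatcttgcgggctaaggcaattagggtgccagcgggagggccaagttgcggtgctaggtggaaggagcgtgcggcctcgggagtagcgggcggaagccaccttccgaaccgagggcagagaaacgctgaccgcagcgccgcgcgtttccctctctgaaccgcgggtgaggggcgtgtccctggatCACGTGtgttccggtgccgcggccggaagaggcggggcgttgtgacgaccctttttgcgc
Imp4 (chr1:34439579-34439828, plus strand), which made no call: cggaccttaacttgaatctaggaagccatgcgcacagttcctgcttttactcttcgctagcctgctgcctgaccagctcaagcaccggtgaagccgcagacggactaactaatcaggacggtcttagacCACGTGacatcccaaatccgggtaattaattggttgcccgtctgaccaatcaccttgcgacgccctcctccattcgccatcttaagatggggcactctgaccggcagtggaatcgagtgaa
Dkc1 (chrX:75095604-75095853, plus strand), which fell by 1.75: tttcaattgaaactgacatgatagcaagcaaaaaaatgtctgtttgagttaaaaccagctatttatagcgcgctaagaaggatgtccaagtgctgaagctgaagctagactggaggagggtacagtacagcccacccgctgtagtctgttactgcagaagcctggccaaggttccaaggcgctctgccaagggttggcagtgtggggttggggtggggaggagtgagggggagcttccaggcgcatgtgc

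The first base of the motif lies at -215 and -48 in Rrn3, at -60 in Nop2 and at -121 in Imp4, counted from the start site. Of these 4, Rrn3 fell, Nop2 and Imp4 made no call, and Dkc1, shown for its decrease, does not hold the motif. A link between motif and change was not tested. The looser frame CANNTG was held by 23 of the 39 (58.97%), against 68.0% of tested genes. A match is a string of letters and not a bound site, and windows do not cover first introns. Mouse Mycn itself had 75.3, 89.6, 118 and 107 CPM with panobinostat, against 133, 178, 162 and 243 CPM with vehicle (-0.86, SE 0.20, limma adjusted p = 0.00408), and the table does not show how reads of the human transgene were assigned.

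Beyond the 45 members, 131 further genes of the pathway were listed. Calls were 71 lower and 11 higher, and the median was -0.37, where 32.4% of all tested genes were lower and 31.2% higher. With panobinostat libraries 3 and 4 left out, calls were 60 lower and 4 higher, where 25% and 23.4% of all tested genes were. Among 50 large-subunit factors 31 were lower and 4 higher (median -0.48; 28 and 1 without those libraries), with Rsl1d1 at -1.12 (SE 0.11) and Sdad1 at -0.95 (SE 0.11) among those lower, and Rbm28 at 0.53 (SE 0.11) and Urb1 at 0.57 (SE 0.13) among those higher. Among 44 small-subunit factors 22 were lower and 2 higher (median -0.32; 15 and 2 without those libraries). Nob1, the nuclease of the last small-subunit cut, fell by 1.01 (SE 0.13), the helicase gene Ddx47 fell by 0.58 (SE 0.08), and the 2 that rose were Utp11 and Pno1. Pno1 rose by 0.70 (SE 0.12), and Utp11 had 60.4, 60.2, 62.8 and 62.4 CPM with panobinostat and 23.7, 23.8, 27.6 and 30.2 CPM with vehicle (1.23, SE 0.11, limma adjusted p = 1.84e-05), the largest rise among the 131.

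Of 11 helpers of snoRNP assembly 6 were lower and 1 higher (median -0.43), with Ruvbl1, an ATPase of that assembly, at -1.001 (SE 0.19), Rpap3 at -0.60 (SE 0.12) and the cap methylase gene Tgs1 at 0.51 (SE 0.12). The exosome and XRN2, which trim and degrade precursor RNA, made up 14 genes, with 11 lower in limma and 0 higher, also 0 higher at an unadjusted p under 0.05 (median -0.75). Exosc10, the nuclear exonuclease, had 40.8, 38.3, 40.6 and 46.7 CPM with panobinostat, against 100.1, 116, 122 and 151 CPM with vehicle (-1.54, SE 0.13, limma adjusted p = 1.65e-05), and Xrn2 fell by 0.68 (SE 0.09). The other 12 polymerase I genes held fewer decreases: 1 fell, 4 rose and 7 made no call (median -0.13). Among all tested genes 32.4% fell and 31.2% rose, so the 4 rises lie near the share of the whole table. Taf1b of the selectivity factor fell by 0.96 (SE 0.10), while the terminator protein gene Ttf1 rose by 0.47 (SE 0.12) and Baz2a of the ribosomal DNA silencing complex by 0.30 (SE 0.08). With panobinostat libraries 3 and 4 left out, limma called 1 of these 12 lower and 0 higher, with 2 higher at an unadjusted p under 0.05, and Urb1 was not called either (0.51, limma adjusted p = 0.0512).

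The other polymerases and the ribosomal proteins give the setting. Beside their counts stand the shares of all tested genes, 32.4% lower and 31.2% higher. Without panobinostat libraries 3 and 4 these shares were 25% and 23.4%. Of 7 subunits particular to polymerase II 5 were called lower by limma and 0 higher, also at an unadjusted p (median -0.48), with the largest subunit Polr2a at -1.09 (SE 0.09). When panobinostat libraries 3 and 4 were left out 1 of the 7 was called lower. At an unadjusted p under 0.05, 4 were then lower, and the median was -0.49. Of 10 particular to polymerase III 6 fell and 2 rose (median -0.41), with Polr3b at -0.99 (SE 0.13) and Polr3gl at 0.49 (SE 0.10). Of the 5 subunits shared by the polymerases 2 fell and 1 rose, with Polr2f at -0.62 (SE 0.16) and Polr2l at 1.01 (SE 0.16). Of 78 ribosomal protein genes limma called 51 lower and 0 higher, also at an unadjusted p (median -0.41). Rps3a1, at -1.66 (SE 0.32), had the largest decrease of the 78, and 1 of these genes passed the test against a 1.5-fold change. Many of these have near-identical pseudogenes that can take their reads, so single values are uncertain. With panobinostat libraries 3 and 4 left out 17 were called lower, and the median was -0.38. At an unadjusted p under 0.05, 12 of the 32 small-subunit and 18 of the 46 large-subunit proteins' genes were then lower. Rps3a1 was not called with library weights (limma adjusted p = 0.0502). All 12 cell division genes listed fell (median -1.40), with Foxm1 at -2.04 (SE 0.11). Differences between these lists and the members were not tested.

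**Figure D5:**
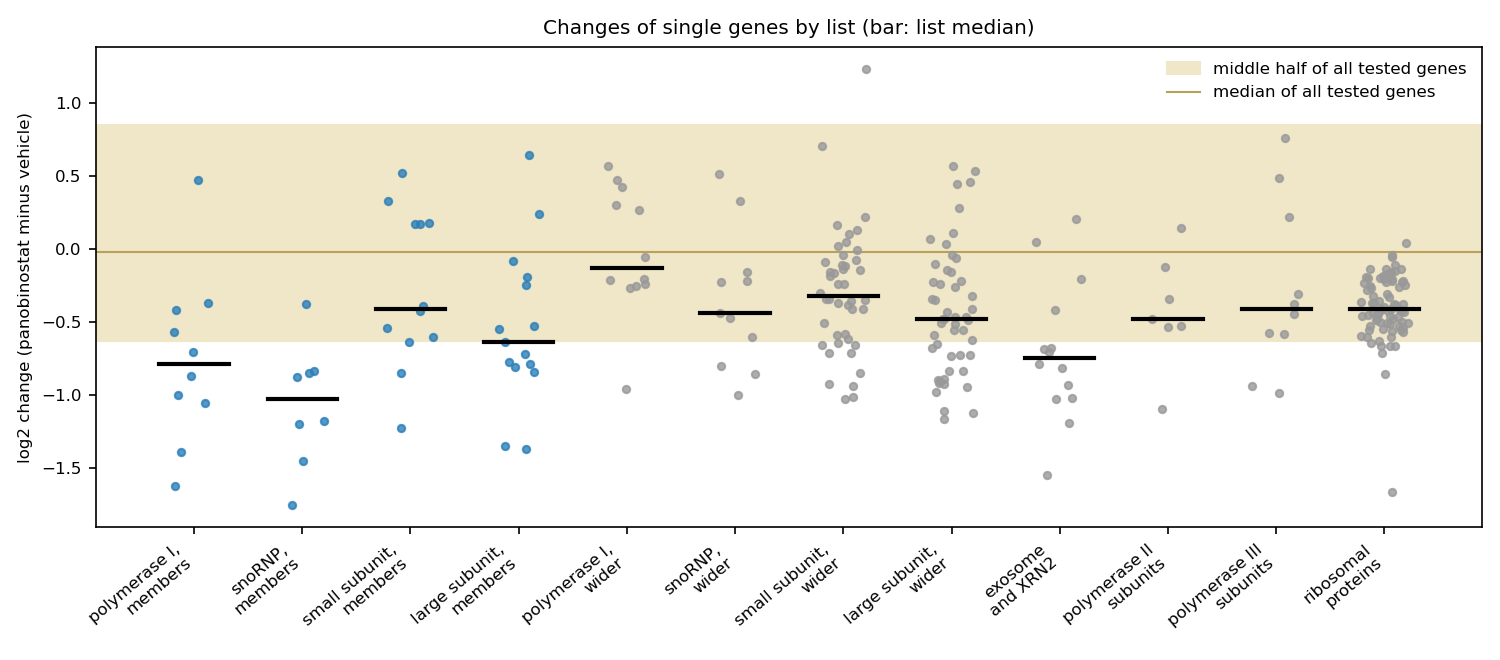
Each point is the log2 change (vertical axis, panobinostat minus vehicle) of 1 gene, for the members by step (blue) and for 8 other lists (grey), with list medians as bars and the 25th to 75th percentile of all tested genes shaded. Medians run from -1.03 for the snoRNP members to -0.13 for the wider polymerase I list.

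Values were tighter with panobinostat. The median SD of the members was 0.11 log2 units with panobinostat and 0.25 with vehicle, and the vehicle SD was the larger one in 43 of 45 members. The same direction held over the whole table: medians over all tested genes were 0.16 with panobinostat and 0.30 with vehicle, with the vehicle SD larger in 81.7% of genes. Panobinostat library 4 had the highest panobinostat value in 32 members, and vehicle library 4 the highest vehicle value in 32. Scaled to read totals in place of the authors' scaling, the numbers were 28 for panobinostat library 4 and 27 for vehicle library 4. Panobinostat library 4 also had the lowest macrophage and fibroblast sums of its group (2724 and 8047 CPM). Its liver marker sum was the highest (8620 CPM), and whether these go with its higher member values was not tested.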

How the data were processed

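RNA-seq of 8 tumours was analysed, 4 per group, grouped by the labels. Per the labels' protocols, total RNA was made into libraries with an Illumina TruSeq kit. Per the submitters' processing notes, the tools were TopHat2, HTSeq, limma and CASAVA 1.8.2, on mm10; no role is stated for them. How the authors annotated, filtered, normalized and treated strand is not given in the sources used here, so overlapping and antisense genes cannot be told apart.

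The table that the authors deposited holds log2 values for 17488 genes in each library. The values have the form of log2 CPM with 0.5 read added: undoing it returned whole reads for 100% of values within 0.001 read. The effective library size behind the deposited values was 1.00 to 1.03 times the read total with panobinostat and 0.888 to 0.977 times with vehicle. CPM in the text are the deposited values taken out of the log. Nothing says that samples share a litter or day, and p-values measure only the spread between these animals. The H numbers in the sample titles are lower for every vehicle sample than for every panobinostat sample. What they stand for is not stated, and anything that goes with them cannot be told apart from treatment.

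The filter kept the 16157 genes that reached 1 CPM in 4 libraries or more and left out 1331. They were tested with limma 3.58.1 in R 4.3.3 (lmFit, eBayes with a variance trend), two-sided, with Benjamini-Hochberg adjustment over all genes tested and a threshold of 0.05. Identifiers were matched to GENCODE M21 symbols (17228 matched, 260 did not). Riok2 and Rpl24, both on a list, were not analysed here. Promoters are from RefSeq (GRCm38.p6). Lengths for levels per kb join the basic protein-coding transcripts of GENCODE M21, in place of the union of all exons first planned, which retained introns inflate.

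The members and gene lists were chosen with earlier results of these data known. Genes named beyond the members are, by rule, the called genes with the smallest adjusted p in each direction, up to 2 per wider pathway list and 1 per comparison list, and Mycn; 1 gene that the rule names is not reported here. Alternatives varied the filter (none, or 5 CPM), the variance model (without trend, robust, with library weights or voom weights), the scaling (quantile, median, trimmed mean, read totals), the pseudocount (1 CPM), the threshold (0.01, or a change beyond 1.5-fold) and the libraries included. The exact permutation tests of ratios (scipy.stats.permutation_test in Python 3.11.15) and the annotation searches were added after the data were seen.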

Additional observations from a re-analysis of the deposited data

Results flagged for a closer look

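Nop2 in vehicle library 4 stood apart from the other libraries of its group, at 6.97 log2 CPM against 6.14 to 6.28 in the other 3. It was the 1 value that did so among 90 groups of 4 examined, where chance gives about 1 in 20. Without that library the change of Nop2 was 0.10.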

How the results depend on the processing

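Counts of members lower stayed within 1.5 times of 33 under every setting but the test against a 1.5-fold change (12 lower, 0 higher), and 30 of the 33 kept their call in all 20 settings that did not raise the threshold. By step that test left 4 lower and 0 higher of polymerase I, 4 lower of snoRNP, 2 lower and 0 higher of the small subunit, and 2 lower and 0 higher of the large subunit. The 4 rises were less stable in number than the decreases. With trimmed mean centring 2 remained (0 of polymerase I, 1 of the small subunit), and at an adjusted p of 0.01 also 2 (0 and 1). With median centring 3 remained, 1 of them a small-subunit gene. Without panobinostat libraries 3 and 4, 0 remained in any step, and quantile normalization gave 2 large-subunit rises. Leaving out 1 library gave 31 to 35 members lower and 4 higher, with 7 to 9 lower for polymerase I. Relative to the values as deposited, the median of all tested genes shifted by -0.12 with median centring, -0.14 with trimmed mean centring, -0.10 with quantile normalization and 0.12 with read totals.

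Of the 131 wider genes 7 were higher with median centring, 6 with trimmed mean centring, 7 at an adjusted p of 0.01, and 4 without panobinostat libraries 3 and 4; against 1.5-fold 14 were lower and 1 higher, and without single libraries 7 (panobinostat library 4 or vehicle library 2 left out) to 14 were higher. Ribosomal protein genes lower numbered 31 with quantile normalization (1 higher), 31 at an adjusted p of 0.01, 1 against 1.5-fold, 17 without panobinostat libraries 3 and 4, and 37 to 51 without single libraries. Signs turned for Nop2 with library weights (0.070), quantile normalization (0.083), read totals (0.034) and without vehicle library 4 (0.10; without single libraries the range was -0.17 to 0.10), for Rrp9 without panobinostat libraries 3 and 4 (-0.0025), for the median of the shared polymerase subunits with read totals (0.012), and for Noc2l to Noc4l with quantile normalization (0.011) and without panobinostat libraries 3 and 4 (0.038); none of these was called, and the cause was not tested. With 1 library left out the exact test of a ratio cannot pass. No paired analysis was possible because the labels number the samples 1 to 8 across both groups. Each group held 4 animals, and no member had fewer than 378 reads in a library.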
